A study of Homo sapiens with 16 samples.

Results

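The regions described here are 560 chromatin boundaries of K562 cells that were called in Hi-C maps made after 12 h of HindIII digestion and had no called boundary within 2 bins, or 40 kb, in maps made after 0.25 h. They are 9.63% of the 5818 boundaries called on the autosomes at 12 h, and each is a 20 kb bin of build hg19. K562 is an established human leukaemia line. Cells were fixed with formaldehyde, their chromatin was cut with HindIII for 0.25, 1, 3 or 12 h, and the cut ends were ligated inside the nuclei, without any other agent or genetic change named in the labels. Each digestion time had 2 replicate libraries, and each library was sequenced in 2 runs. The labels do not say whether the replicates were separate cultures, so the p-values below measure only the spread between these libraries, which may be technical. Contact maps carry no marker genes, so the identity of the cells was not checked here.

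Hi-C joins pieces of DNA that lie close together in the fixed nucleus and counts the joined pairs. Along a chromosome such maps show blocks, known as topologically associating domains, within which contacts are frequent and between which they are sparse. The borders of these blocks are often bound by CTCF and cohesin, the protein ring that extrudes chromatin loops and is stopped by CTCF, and they help to keep enhancers in contact with promoters of their own block. HindIII cuts DNA at its recognition sites wherever the packed chromatin lets the enzyme reach them, and the design of the series varied digestion length to ask which boundaries are reached first.

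A boundary was read from the insulation score, the log2 of the mean balanced contact signal that crosses a bin over the chromosome mean of that quantity. The contacts that cross a bin are those between the 10 bins before it and the 10 bins after it, or 200 kb on each side. Where contacts across a bin are sparse the score is low. A boundary is a local minimum of this score with a prominence, its depth below the lower of the surrounding maxima, of 0.2 or more. Both replicates of a time were summed before calling. The 560 regions were therefore chosen by their 12 h and 0.25 h values, and every comparison between these 2 times is given as a description, without a test. The opposite selection, boundaries at 0.25 h with none within 2 bins at 12 h, held 1088 of 6352 boundaries (17.1%).

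The libraries of the second run held between 62777251 and 176412222 contacts, and depth rose with digestion time. Contacts near enough to enter a score numbered 40223104 at 0.25 h and 47568891 at 1 h, and rose to 61800258 at 3 h and 88241065 at 12 h, both replicates added. The number of boundaries called went the other way, from 6352 at 0.25 h through 6215 at 1 h and 6138 at 3 h to 5818 at 12 h. Maps thinned to equal depth are described further on.

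The threshold cut through a continuous range of values. The 3 regions that passed it most narrowly had 12 h prominences of 0.2002, 0.2005 and 0.2006, and they lie at chr2:127920001-127940000, chr6:44620001-44640000 and chr19:41300001-41320000. The 3 local minima that missed it most narrowly, at chr16:57100001-57120000, chr5:103160001-103180000 and chr13:40500001-40520000, had prominences of 0.1999, 0.1995 and 0.1985. The same held on the 0.25 h side. The 3 regions whose 0.25 h minimum came nearest to counting as a boundary, at chr10:113080001-113100000, chr17:73880001-73900000 and chr12:3660001-3680000, had 0.25 h prominences of 0.1994, 0.1988 and 0.1987. At chr16:17940001-17960000, chr2:128280001-128300000 and chr10:27160001-27180000 the 0.25 h prominences were 0.2009, 0.2017 and 0.2022, and these 12 h boundaries were therefore not selected.

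The selected boundaries were mostly shallow ones, which the selection favours, since its threshold cuts on these same prominences. Their median 12 h prominence was 0.335, with a lower quartile of 0.246 and an upper quartile of 0.638, whereas the other 5258 boundaries had a median of 0.799. Of the 817 boundaries at 12 h with a prominence from 0.2 to 0.3, 28.8% were selected. This share was 12.7% for prominences from 0.3 to 0.5, 6.40% from 0.5 to 1 and 3.10% at 1 and above, where 60 of 1935 boundaries were selected. A prominence under 0.5 was held by 373 of the 560 regions, and by 1527 of the other 5258.

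The regions were also dips in the score at 0.25 h, at a lesser depth. Between 545 and 560 of the bins were scored in each library, all of them at 12 h alone, and the median score over those scored was -0.201 and -0.196 in the 2 libraries of 0.25 h, -0.236 and -0.237 at 1 h, -0.237 and -0.227 at 3 h, then -0.257 and -0.248 at 12 h. The 0.25 h libraries were the highest and the 12 h libraries the lowest, with those of 1 h and 3 h in between and overlapping each other. The selection on 0.25 h and 12 h values favours this order, the profile depths below and the contrast with the other boundaries. Regions chosen in 1 replicate had median 12 h minus 0.25 h scores of 0.00718 and 0.00879 in the other, as described further on. Over the 538 bins scored in every library the order was the same, from -0.205 and -0.199 at 0.25 h to -0.261 and -0.253 at 12 h. The other boundaries had median scores of -0.497 ± 0.00314 at 0.25 h and -0.474 ± 0.00416 at 12 h (mean of the library medians ± SD, n = 2), so they were lower than the selected bins at both times and slightly higher at 12 h than at 0.25 h. In the mean profile the selected bins lay 0.28 ± 0.0013 below the level 200 kb away at 0.25 h, 0.33 ± 0.011 below at 1 h, 0.33 ± 0.010 at 3 h and 0.35 ± 0.00060 at 12 h on the log2 scale (n = 2 each). For the other boundaries these depths were 0.71 ± 0.0072, 0.71 ± 0.0094, 0.71 ± 0.011 and 0.69 ± 0.0091.

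**Figure D1:**
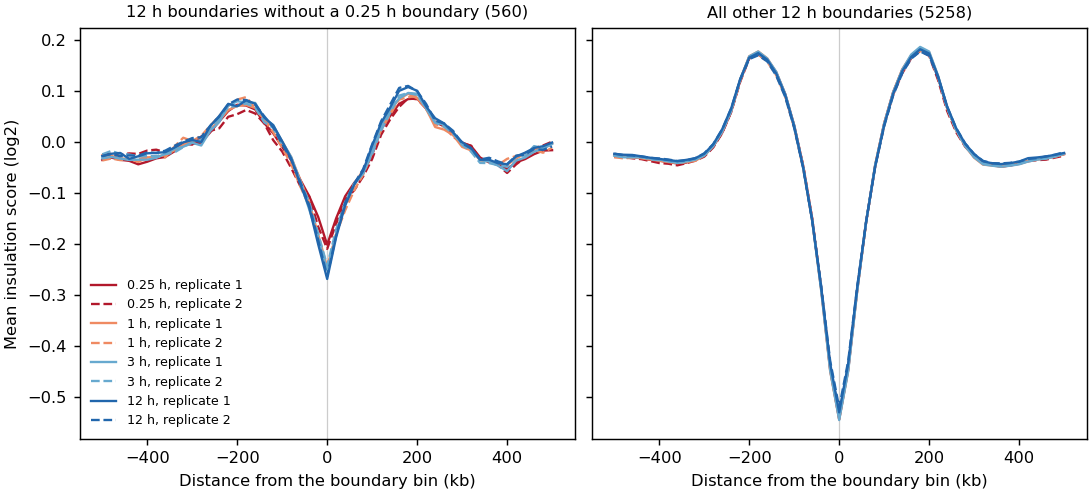
Mean insulation score (log2) against distance from the boundary bin (kb) for the selected boundaries (left) and the other boundaries at 12 h (right). Each mean is over the bins scored at that distance in that library, which at the centre are 545 to 560 of the selected and 5228 to 5258 of the others. Each line is 1 library, coloured by digestion time, solid for replicate 1 and dashed for replicate 2. The selected bins already dip at 0.25 h, where the mean at the centre is -0.202 and -0.210, against -0.269 and -0.264 at 12 h. The selection favours this difference between 0.25 h and 12 h.

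At 0.25 h most of the selected boundaries had a local minimum below the threshold or a boundary a little farther away. Some local minimum of the 0.25 h score, of any prominence, lay within 2 bins of 483 of the 560 regions (86.2%), beside 64.1% of all scored bins. A 0.25 h boundary lay 3 to 5 bins away from 315 regions (56.2%), at 3 bins for 175, at 4 bins for 91 and at 5 bins for 49. Boundaries are dense enough that such a neighbour is common: of the 98779 bins scored at 12 h with no 0.25 h boundary within 2 bins, 35.2% had one 3 to 5 bins away. It lay 6 to 10 bins away from 118 regions and over 10 bins away from 127. The median distance was 5 bins, or 100 kb, beside 7 bins for those 98779 bins, and the farthest was 2140 kb.

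Divided by what was seen at 0.25 h, 258 regions were fully scored there and had a boundary 3 to 5 bins away, 200 had a local minimum within 2 bins that fell short of 0.2 with no boundary up to 5 bins away, and 97 could not be fully scored there. No local minimum within 2 bins and no boundary within 5 bins were found for 5 fully scored regions. Among the 200 with a weak minimum its median prominence was 0.127, and it was at least 0.1 in 128 of them, while their median prominence at 12 h was 0.255.

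The largest of these groups had a 0.25 h boundary close by. For 298 of the 315 regions with a 0.25 h boundary 3 to 5 bins away, which is 53.2% of all 560, that 0.25 h boundary had in turn none within 2 bins at 12 h, so that each time had its own call, 60 to 100 kb from that of the other. Of all 6352 boundaries at 0.25 h, 1088 (17.1%) had none at 12 h. The high share here is largely set by the selection, since a 12 h boundary already stood 3 to 5 bins away and few 12 h boundaries had another within 10 bins (15.4% of the selected and 15.4% of the others). The score at these 2 positions differed little. The 12 h position minus the 0.25 h position had a median of -0.0634 in the 12 h map and of 0.0604 in the 0.25 h map, both on the log2 scale and both signs fixed by the selection. The other 17 regions stood beside a 0.25 h boundary that was also present at 12 h.

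The libraries of 1 h and 3 h, which took no part in the selection, placed the boundary nearer its 12 h position somewhat more often than nearer its 0.25 h position. At 1 h the boundary of the library lay nearer the 12 h position for 52.3% and 49.7% of the 298 regions in replicates 1 and 2 and nearer the 0.25 h position for 35.2% and 32.2%. At 3 h these shares were 54.4% and 49.0% against 34.6% and 38.3%. The remaining regions had no boundary over this stretch or lay midway. The median score difference between both positions was -0.0259 and -0.0297 at 1 h and -0.0296 and -0.0138 at 3 h, so all 4 libraries had the lower score at the 12 h position, in 55.6% to 59.9% of the regions. The shares are descriptions over regions, which are not replicates, and no test was run on them. The summed map that set the 12 h positions held 88241065 scoring contacts, and that of 0.25 h held 40223104. No version at equal depth was made, so the part of depth in these shares was not tested.

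**Figure D2:**
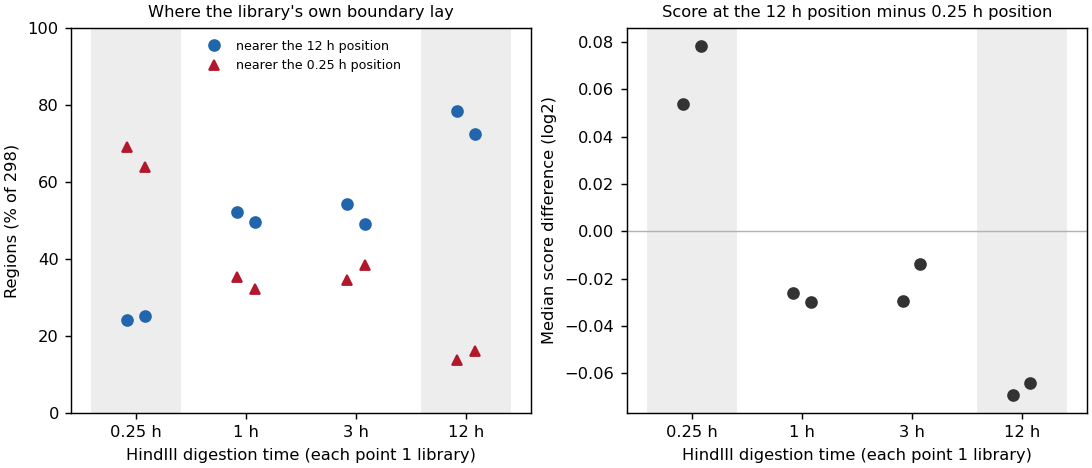
The 298 regions with a 12 h and a 0.25 h boundary 60 to 100 kb apart, with 1 point per library and digestion time on the horizontal axis. The left panel gives the share (%) in which the boundary of that library lay nearer the 12 h or nearer the 0.25 h position, and the right panel the median score difference (log2) between both positions. Grey marks the times used for the selection, which fixes the split of the summed maps there and favours that of each library. The 1 h and 3 h libraries lie between them at 49.0% to 54.4% nearer the 12 h position. The 12 h map was deeper than that of 0.25 h, and no version at equal depth was made.

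Taken 1 library at a time, the selection held in part. Of the 560 regions, 333 (59.5%) had a boundary within 2 bins in both 12 h replicates alone, 139 in replicate 1 alone, 82 in replicate 2 alone and 6 in neither. At 0.25 h, 229 regions (40.9%) had none in either replicate alone, while 135 had 1 in replicate 1, 162 in replicate 2 and 34 in both, although the summed map had none. Present in both 12 h replicates and absent from both 0.25 h replicates were 118 regions. Of these, 110 were scored in every library, 19.6% of the 560, and they are called firm below.

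Each 12 h replicate held boundaries that were missing from the other 12 h replicate, in much the same share as from the 0.25 h libraries. Of its 5946 boundaries, 11.9% had none within 2 bins in 12 h replicate 2, 12.1% none in 0.25 h replicate 1 and 14.3% none in 0.25 h replicate 2. Of the 5962 boundaries of 12 h replicate 2, 12.2% had none in 12 h replicate 1, 12.5% none in 0.25 h replicate 1 and 14.2% none in 0.25 h replicate 2. In the libraries of 1 h and 3 h the missing shares ran from 11.3% to 13.1%. The 2 libraries of 12 h had 47443497 and 40797568 contacts near enough to enter a score, those of 0.25 h 26598046 and 13625058.

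Regions chosen in 1 replicate were then read in the other, which the choice had not used. Replicate 1 alone gave 721 boundaries at 12 h with none at 0.25 h. In replicate 2, 51.0% of them had a 12 h boundary within 2 bins, 46.5% lacked a 0.25 h boundary, and 18.2% met both conditions. The median 12 h minus 0.25 h score was -0.0875 in the replicate that chose them and 0.00718 in the other, where 331 of 707 were lower at 12 h (46.8%). Replicate 2 alone gave 848, of which 59.4%, 40.7% and 15.6% met the conditions in replicate 1, with a median of -0.107 in the choosing replicate and 0.00879 in the other (390 of 829 lower, 47.0%). In both directions the median difference in the replicate that had not been used was slightly above 0. The other boundaries of 12 h, from the summed maps, had medians of 0.0106 in replicate 1 (45.9% lower) and 0.0109 in replicate 2 (46.9% lower). Of all scored bins, 22.3% had a 12 h boundary within 2 bins in replicate 1 and 22.4% in replicate 2. For 0.25 h boundaries these shares were 24.5% and 26.6%. The share of all bins that met both conditions was not measured.

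At 1 h and 3 h a boundary was found near most of the selected regions. Within 2 bins lay a boundary of the summed 1 h map for 329 regions (58.8%) and of the summed 3 h map for 322 (57.5%), with the libraries alone at 58.4% and 58.0% at 1 h and at 58.2% and 57.7% at 3 h. The background among all scored autosomal bins was 23.3% at 1 h and 23.0% at 3 h, and among all 5818 boundaries of 12 h it was 91.6% and 91.4%. The selected regions thus lay above bins in general and below boundaries in general at both times. Both times had a boundary for 223 regions, 1 h alone for 106, 3 h alone for 99 and neither for 132 (23.6%). The boundaries found at 0.25 h and missing at 12 h had a boundary within 2 bins at 1 h in 39.9% and at 3 h in 37.4%.

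Over the 4 libraries of 1 h and 3 h taken alone, 114 of the 560 regions (20.4%) had a boundary in all 4, 146 in 3, 149 in 2, 109 in 1 and 42 in none (7.50%). Among the other boundaries of 12 h, 82.7% had a boundary in all 4 and 0.437% in none. Those were chosen for a 0.25 h boundary within 2 bins and had a median prominence of 0.799 against 0.335, so the selection favours this contrast. The counts over all 4 libraries were not measured for all scored bins. Of those, 23.7% to 25.1% had a boundary within 2 bins in each of these libraries alone.

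**Figure D3:**
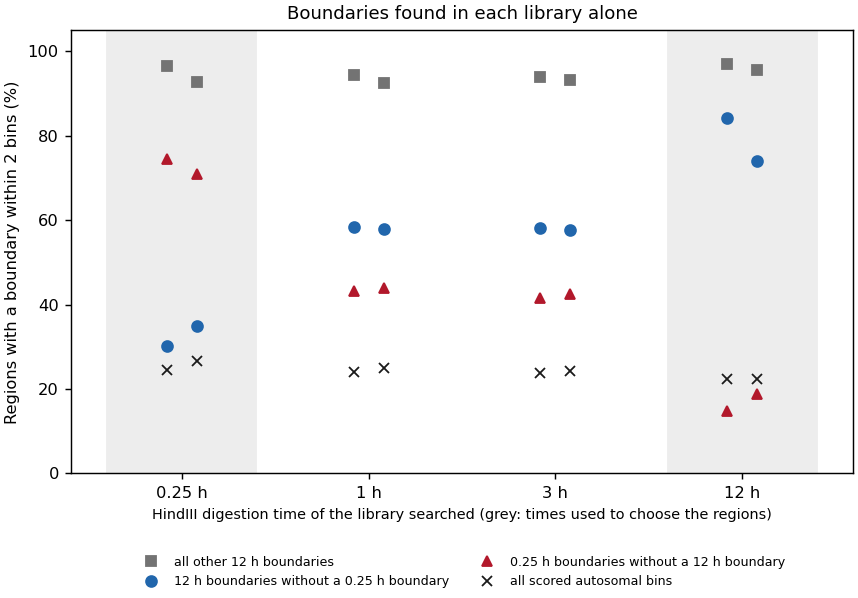
Share of regions (%) with a boundary within 2 bins in each library alone, by HindIII digestion time, with 1 point per library and set. Circles are the 560 selected boundaries, squares the other 5258 boundaries of 12 h, triangles the 1088 boundaries of 0.25 h without a 12 h boundary, and crosses all scored bins, and grey marks the times used for the selection. At 1 h and 3 h the circles sit at 57.7% to 58.4%, between the crosses at 23.7% to 25.1% and the squares at 92.4% to 94.3%.

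The only difference between times that the selection left untouched, 3 h minus 1 h, gave no call at any region. The scores of 129034 autosomal bins scored in all 8 libraries were fitted with limma, and 0 bins were called at a Benjamini-Hochberg adjusted p under 0.05 (0% of the bins tested), with 6187 bins at an unadjusted p under 0.05 (4.79%). Of the 538 selected regions tested, 0 were called, and the lowest adjusted p was 0.876. At an unadjusted p under 0.05 there were 38 (7.06%). When only the 5756 boundaries of 12 h scored in all libraries were fitted there were 28 (5.2%), beside 4.85% of all those boundaries. In the fit of all bins, the median difference of the regions, 3 h minus 1 h, was 0.00169 on the log2 scale, with 263 lower at 3 h and 275 higher. The median standard error was 0.0647 for the regions and 0.0577 for all bins tested. These standard errors draw on all 8 libraries, those used for the selection included. With the 1 h and 3 h libraries alone, 0 bins were called too.

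The 15 firm regions with the largest 12 h prominence are named A to O, in falling order of prominence from 2.12 to 0.87. A boundary of the 0.25 h map lay 3 bins from 9 of them, 4 bins from 5 and 5 bins from A, so none of the 15 was far from a 0.25 h boundary. The positions are chr16:14860001-14880000 for A, chr8:80580001-80600000 for B, chr11:89940001-89960000 for C, chr19:16740001-16760000 for D and chr4:83200001-83220000 for E. F to J are chr5:142360001-142380000, chr5:177020001-177040000, chr2:240020001-240040000, chr19:2940001-2960000 and chr2:227960001-227980000. K to O are chr15:72960001-72980000, chr22:43540001-43560000, chr8:24940001-24960000, chr17:8720001-8740000 and chr14:91260001-91280000. Some of the 5 bins around A, D, I, K and N could not be scored at 0.25 h. What genes these bins hold was not analysed here.

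Region I, on chromosome 19, had the same order of early and late times in both replicates. Its score was 0.06 and 0.03 at 0.25 h, -0.04 and -0.14 at 1 h, -0.31 and -0.34 at 3 h, then -0.24 and -0.36 at 12 h for replicates 1 and 2. The 0.25 h and 1 h libraries lay above all of those of 3 h and 12 h. The limma difference, 3 h minus 1 h, was -0.24 with a standard error of 0.058 (unadjusted p = 0.00282, adjusted p = 0.963), so it was not called. In the first run its 12 h minus 0.25 h score was -0.55 and -0.34 in the 2 replicates, of the same sign as the -0.44 of the summed second run. From contacts without balancing the difference was 0.02, so it was seen in the balanced signal alone.

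Region B, on chromosome 8, was among the most insulated bins named. It scored -1.38 and -1.17 at 0.25 h, -1.47 and -1.41 at 1 h, -1.40 and -1.47 at 3 h, then -1.39 and -1.42 at 12 h. Its 12 h values lay below both 0.25 h values, and its nearest 0.25 h boundary was 60 kb away. The libraries of 1 h and 3 h all had a boundary within 2 bins. The score was strongly negative at every time, and the first run gave differences of the opposite sign, 0.07 and 0.20.

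Region E, on chromosome 4, scored -0.66 and -0.55 at 0.25 h, -0.52 and -0.54 at 1 h, -0.72 and -0.70 at 3 h, then -0.69 and -0.69 at 12 h. The 3 h and 12 h libraries were all lower than those of 0.25 h and 1 h. The limma difference, 3 h minus 1 h, was -0.18 with a standard error of 0.051 (unadjusted p = 0.00662, adjusted p = 0.992). The summed 12 h minus 0.25 h score of E was -0.07, and it was 0.08 with windows of 5 bins, 0.01 with windows of 20 bins, 0.04 without balancing and 0.12 in the first run, where the replicates gave 0.34 and -0.10. Region L, on chromosome 22, scored -0.32 and -0.31 at 0.25 h, -0.47 and -0.26 at 1 h, -0.57 and -0.60 at 3 h, then -0.55 and -0.41 at 12 h. Here too the 3 h and 12 h libraries were below both libraries of 0.25 h, while the 1 h replicates lay on either side of them. The first run gave L differences of 0.17 and -0.48, and without balancing its difference was 0.12 in place of -0.16.

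The firm region with the largest prominence, A on chromosome 16, did not separate the times. It scored -0.69 and -1.23 at 0.25 h, -1.08 and -1.39 at 1 h, -0.88 and -1.56 at 3 h, then -1.44 and -1.21 at 12 h, so the replicates of each time lay far apart and all times overlapped. Only 41 and 20 contacts crossed A at 0.25 h, and 60 and 53 at 12 h. Region G, on chromosome 5, scored -0.40 and -0.38 at 0.25 h, -0.33 and -0.71 at 1 h, -0.15 and -0.22 at 3 h, then -0.47 and -0.18 at 12 h. Its summed score was higher at 12 h, by 0.06, although it counted as a 12 h boundary. At G the selection rested on the position of the minimum, 80 kb from the 0.25 h boundary, and not on a lower score. Few contacts crossed G too, 84 and 50 at 0.25 h.

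Over the 15, both 12 h scores were below both 0.25 h scores in B, E, I, J, K, L, N and O, and the times overlapped in A, C, D, F, G, H and M. This comparison repeats the selection and supports nothing. In the first run, 1 of the 14 measured, I, was lower at 12 h in both replicates, while B, C, F, G and M were higher in both. In the limma comparison of 3 h with 1 h, E, I and L were lower at 3 h and G and M higher at an unadjusted p under 0.05, with differences of 0.34 for G and 0.14 for M. That cut was passed by 7.06% of the 538 selected regions tested and 4.79% of all bins tested, and by none of P to Y, named below. When only the boundaries of 12 h were fitted, it was passed by 5.2% of the 538 and 4.85% of all boundaries tested. None of these 15 regions was called by limma, with adjusted p-values from 0.963 to 0.999. Over all regions scored in every library, 216 of 538 (40.1%) had both 12 h scores below both 0.25 h scores and 31 (5.76%) had both above. Among all scored bins these shares were 20.3% and 19.5%.

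**Figure D4:**
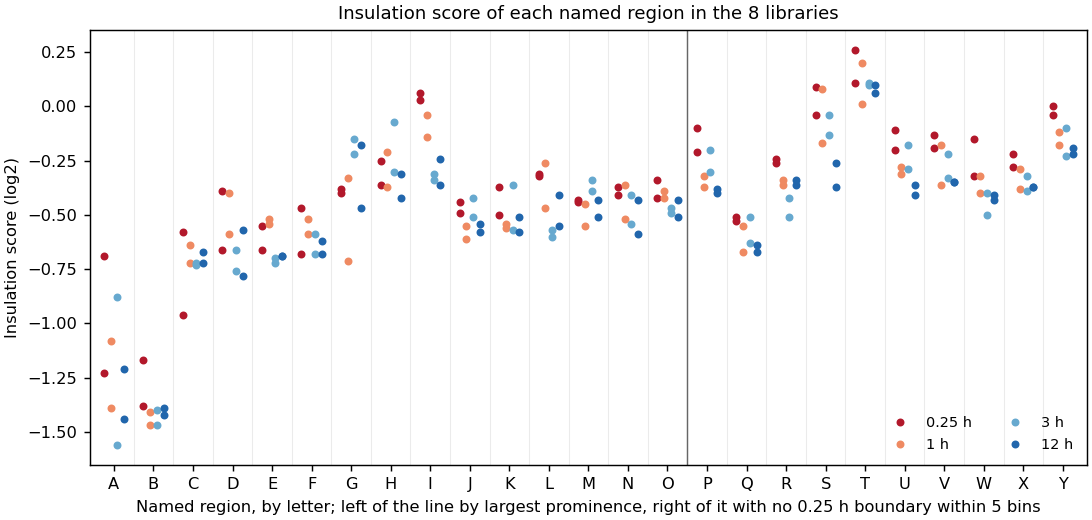
Insulation score (log2) of the named regions A to Y in the 8 libraries of the second run, coloured by digestion time, with 1 point per library. Left of the vertical line are the 15 firm regions with the largest 12 h prominence, right of it the 10 firm regions picked among those without a 0.25 h boundary within 5 bins. Region I falls from between 0.03 and 0.06 at 0.25 h to between -0.36 and -0.24 at 12 h, whereas the points of A overlap between times. Few contacts cross both bins at 0.25 h, 146 and 54 for I and 41 and 20 for A.

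Since the 15 all stood near a 0.25 h boundary, 10 further regions, P to Y, were picked after their values had been seen. They are the firm, fully scored regions with the largest 12 h prominence, from 0.83 to 0.42, among the 37 that had no 0.25 h boundary within 5 bins. P to T lie at chr11:77780001-77800000, chr6:116420001-116440000, chr13:47040001-47060000, chr14:93260001-93280000 and chr5:180200001-180220000. U to Y lie at chr17:46080001-46100000, chr5:16140001-16160000, chr8:119420001-119440000, chr2:5480001-5500000 and chr6:113420001-113440000. A weak 0.25 h minimum lay within 2 bins of 9 of these 10, and W had none.

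Region P, on chromosome 11, was the most prominent of them. It scored -0.10 and -0.21 at 0.25 h, -0.32 and -0.37 at 1 h, -0.30 and -0.20 at 3 h, then -0.40 and -0.38 at 12 h. The 12 h libraries were the lowest, and no library of 1 h or 3 h had a boundary within 2 bins. Region S, on chromosome 14, scored -0.04 and 0.09 at 0.25 h, 0.08 and -0.17 at 1 h, -0.13 and -0.04 at 3 h, then -0.37 and -0.26 at 12 h. Only the 12 h libraries of S stood apart, and 2 of the 4 libraries of 1 h and 3 h had a boundary near it.

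Region W, on chromosome 8, had no 0.25 h minimum within 2 bins and its nearest 0.25 h boundary was 260 kb away. It scored -0.15 and -0.32 at 0.25 h, -0.40 and -0.32 at 1 h, -0.40 and -0.50 at 3 h, then -0.43 and -0.41 at 12 h. The 3 h and 12 h libraries all lay below both 0.25 h libraries, and 3 of the 4 libraries of 1 h and 3 h had a boundary near it. Region Y, on chromosome 6, scored -0.04 and -0.00 at 0.25 h, -0.12 and -0.18 at 1 h, -0.23 and -0.10 at 3 h, then -0.19 and -0.22 at 12 h. All later libraries of Y were below those of 0.25 h, and 1 of the 4 libraries of 1 h and 3 h had a boundary near it. Region V, on chromosome 5 and 240 kb from the nearest 0.25 h boundary, scored -0.19 and -0.13 at 0.25 h and -0.35 and -0.35 at 12 h.

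Region X, on chromosome 2, was the farthest of the 10 from a 0.25 h boundary, at 320 kb, and scored -0.28 and -0.22 at 0.25 h against -0.37 and -0.37 at 12 h. Regions Q, R, T and U had 12 h minus 0.25 h differences in the summed maps of -0.14, -0.09, -0.13 and -0.22. Both 12 h scores lay below both 0.25 h scores in all of the 10, which the choice of firm regions favours. The same held for 68 of the 110 firm regions (61.8%), and 2.73% had both above. Among all bins scored in every library 20.3% had both below and 19.5% both above. In the first run the difference was negative in both replicates in P, Q, R, U, V and W, and of mixed sign or zero in 1 replicate in S, T, X and Y. From contacts without balancing the difference turned positive in S (0.10), T (0.23), U (0.02), V (0.08) and X (0.04). It stayed negative in P (-0.02, beside -0.25 with balancing), Q (-0.18), R (-0.04), W (-0.10) and Y (-0.10).

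The first run holds other reads of the same libraries in 50 kb bins and is no further replicate. It is also the shallower one, with 8918994 to 20237350 contacts a library beside 62777251 to 176412222 in the second run. With 4 bins, or 200 kb, on each side, the median 12 h minus 0.25 h score of the regions was -0.0248 in replicate 1 (282 of 527 lower, 53.5%) and -0.0155 in replicate 2 (274 of 524 lower, 52.3%). In the second run, where the regions were chosen, the summed median was -0.0616, with 415 of 541 lower (76.7%). Both first-run replicates were lower at 12 h for 153 of 519 regions (29.5%) and higher for 124 (23.9%). For the other boundaries these shares were 24.0% and 26.9%. Within the regions the first run was not uniform: in replicate 2 the median was 0.0190 for the firm regions (48 of 103 lower, 46.6%) and 0.0313 for the 258 with a 0.25 h boundary 3 to 5 bins away (113 of 257 lower, 44.0%), against -0.0545 and -0.0213 in replicate 1.

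Depth was made equal by drawing from the recovered contacts until each time held the 40223104 scoring contacts of 0.25 h. The 0.25 h map was unchanged by this, and 5974 boundaries were called at 12 h. A 12 h boundary within 2 bins was kept by 426 of the 560 regions (76.1%). The contacts were drawn once, and the share kept among all 5818 boundaries of 12 h was not measured. Since the 0.25 h map stayed as it was, thinning cannot show which boundaries a deeper 0.25 h map would hold. The thinned maps had 750 boundaries at 12 h with none at 0.25 h (12.6%) and 1124 in the opposite direction. The number of such regions was thus larger at equal depth than at the deposited depth.

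The regions were spread over all autosomes, with the largest share on chromosome 19. There 35 of 166 boundaries at 12 h were selected (21.1%), beside 14.1% on chromosome 22, 12.4% on chromosome 4 and 12.1% on chromosome 16. The lowest shares were 6.16% on chromosome 1 and 5% on chromosome 21. On chromosome 19, 28 of the 35 lay where some of the 5 bins around the region could not be scored at 0.25 h, because a bin was absent from a 0.25 h file or too many neighbours were. Among its 84 boundaries with all 5 bins scored, 7 were selected (8.33%), and among the other 82, 34.1%.

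Over all autosomes, 463 of 5216 boundaries with all 5 bins scored at 0.25 h were selected (8.88%), and 97 of the 602 with some bins unscored (16.1%). In 19 of the 97 the bin itself had no 0.25 h score, and in 78 only a neighbour lacked it. These 97 lay in thinly covered bins, whose median total contacts were 323 and 158 in the 0.25 h libraries and 671 and 611 in those of 12 h, against 1156 and 612 and 2002 and 1756 for the other boundaries. Counting fully scored boundaries alone, the largest share was on chromosome 4, where 42 of 330 were selected (12.7%), and the lowest on chromosome 21, with 3 of 70 (4.29%).

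**Figure D5:**
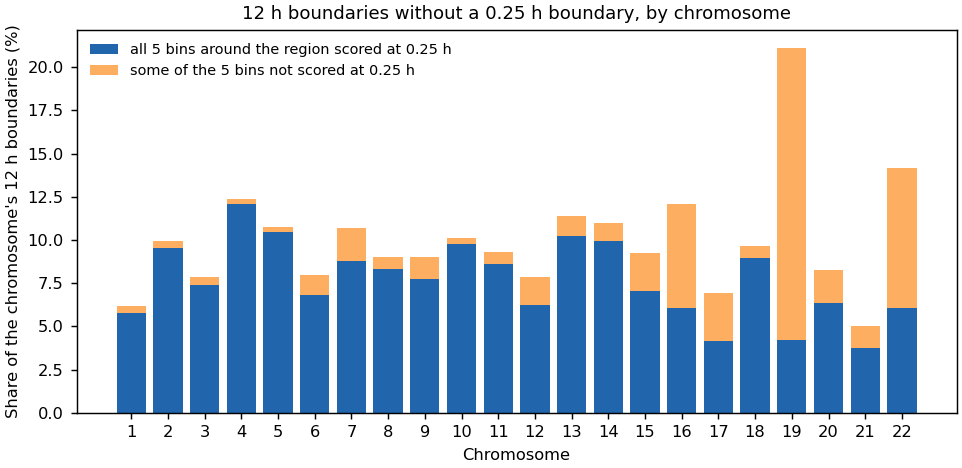
Selected boundaries as a share (%) of all boundaries called at 12 h on each autosome, stacked by whether all 5 bins around the region were scored at 0.25 h. On chromosome 19 the bar reaches 21.1%, and most of it, 28 of 35 regions, comes from places with unscored bins.

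Chromosomes fold into compartments that usually part active from inactive chromatin, and 100 kb bins were put into 2 classes from the 1 h and 3 h libraries. The classes are the 2 signs of an eigenvector of each chromosome's own contacts. Its sign was set so that class 1 goes with contacts to chromosomes 16, 17, 19 and 22 over those to 4, 5, 13 and 18. The correlation with that ratio ran from 0.501 on chromosome 9 to 0.908 on chromosome 20, so single bins can depart from it. Of the classed regions 50.7% were in class 1, beside 66.6% of the other boundaries and 52.0% of all scored bins. Below a prominence of 0.5 the shares were 40.8% for the selected and 57.4% for the other boundaries, and at 0.5 and above 72.6% and 70.4%. These shares also moved with the scoring at 0.25 h. Of the selected regions without all 5 bins scored there, 68 of 75 (90.7%) were in class 1, against 205 of 463 (44.3%) of those with all 5. For the other boundaries the counts were 385 of 465 and 3091 of 4753. Among boundaries with all 5 bins scored, class 1 held 34.7% of the selected and 55.0% of the others below a prominence of 0.5. At 0.5 and above it held 67.9% and 69.1%, so the gap there was among the shallow boundaries. These shallow sets were not alike in prominence, since 28.8% of all boundaries from 0.2 to 0.3 were selected and 12.7% from 0.3 to 0.5. The part of prominence in this gap was not tested. Within 200 kb of a change of class lay 14.3% of the selected and 22.6% of the other boundaries, and 18.4% of all scored bins. No test was run on these shares.

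Coverage moved with digestion time at the selected and the other boundaries alike. The total contacts of a bin over the mean of its flanks had a median log2 of -0.321 ± 0.00860 at 0.25 h and -0.229 ± 0.00916 at 12 h for the selected boundaries, and of -0.264 ± 0.0220 and -0.168 ± 0.00168 for the others (n = 2). Both kinds of boundary were covered less than their flanks at both times, and both gained toward 12 h. Contacts of a bin with itself made up 5.71% ± 0.224 of the total of a selected bin at 0.25 h and 3.32% ± 0.00508 at 12 h. At the other boundaries they made up 6.11% ± 0.150 and 3.58% ± 0.0521. The part of coverage in the selection was not tested.

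The selected boundaries were spaced much as others were. The next boundary of the 12 h map lay a median of 340 kb away for them and 300 kb for the others, and within 10 bins for 15.4% of both. Only 4 pairs of selected regions lay within 10 bins of each other, so the 560 are nearly all separate places.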

How the data were processed

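The authors deposited 16 files, 1 per library and run, each listing pairs of bins with a balanced contact signal (coverage scaled so that bins have equal totals); per the submitters' processing notes HiC-Pro 2.11.1, Bowtie2 2.3.4.1 and build hg19 were used. Read filters and the filter on bins are not given in the sources used here. Bin numbers fitted 20 kb bins (second run) and 50 kb bins (first run) over hg19 chromosomes 1 to 22, X, Y and M.

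The deposited signal is whole contacts times a factor per bin: dividing these out left 100% of values within 0.01 of a whole number, with 62777251 to 176412222 contacts per library in the second run. Contacts amplified by PCR are not independent molecules. Those contacts served for thinning and for the unbalanced alternative. They also gave the depths, the contacts across a bin, its total and self contacts, and the contacts between chromosomes that oriented the classes. All other scores came from the balanced signal.

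Scores were computed on the summed 20 kb signal of both replicates for bins present in both, with at least 60% of the 20 flanking bins present and runs joined over gaps of up to 10 bins; minima came from scipy 1.17.1. Scores of the 8 libraries, 3 h against 1 h, were fitted with limma 3.58.1 (R 4.3.3) without a replicate block. Scripts were tested on simulated data. Same-numbered libraries did not deviate together (correlations of -0.00139 to 0.0174), so replicate numbers were not taken as pairs. Classes came from the eigenvector, of the first 2 of each chromosome at 100 kb, that followed contacts between chromosomes best.

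The regions and lists were chosen with earlier results of these data known. Named were the 15 firm regions (called in both 12 h replicates, in neither 0.25 h replicate, scored in all libraries) with the largest 12 h prominence, the 3 nearest each threshold, and regions called by limma (0). An hg19 sequence and annotation were not used here, so no genes, enzyme sites or motifs are given.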

Additional observations from a re-analysis of the deposited data

How the results depend on the processing

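The number of regions, 560, followed the settings. It was 356 with 0.1 in place of 0.2 as the minimum prominence at 0.25 h, 894 and 245 when boundaries were matched within 1 and 5 bins, 1049 and 323 with windows of 5 and 20 bins, and 1118 from contacts without balancing. It ran from 721 to 848 when a replicate was left out, the higher value without replicate 1. It stayed within 1.5 times at 760 and 443 (prominence 0.1 and 0.3 at both times), 750 (equal depth), 557 (90% of flanking bins present) and 463 (all 5 bins scored at 0.25 h, chosen after seeing the data). Of the 560, 152 met both conditions in the window of 5 bins, 61 in that of 20 and 73 without balancing. The share with a boundary at 1 h, 58.8%, was 72.3% at prominence 0.1, 80% within 5 bins, 56.6% at equal depth, 61.8% for firm regions, and 58.0% to 58.4% with a replicate left out; that at 3 h, 57.5%, was 72.9%, 80.5%, 54.1%, 63.6%, and 57.7% to 58.2%. Prominence 0.1 and matching within 5 bins also raise the share among all scored bins, which was not measured for them. The backgrounds of 23.3% at 1 h and 23.0% at 3 h hold only for prominence 0.2 and 2 bins. The causes of the changes with setting were not tested, beyond what each setting's own construction shows.

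For 3 h against 1 h, limma called 0 bins with the replicate block (6237 at an unadjusted p under 0.05, 39 of them regions described here) and 0 in each of the other 9 alternatives, those leaving out a library included; a lone library was then assumed to vary like the others. Of the 25 named regions, the 12 h minus 0.25 h score had the opposite sign in 16 without balancing, 6 in each other window (24 measured at 5 bins), 8 of 24 in the first run, 5 without replicate 1 and 2 without replicate 2. Depth limits every score: the median region had 604 and 301 contacts across it in the 0.25 h libraries and 1098 and 964 in those of 12 h.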
